A study of Mus musculus with 9 samples.

Results

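Expression of 10 myeloid receptor genes was measured by RNA-seq in bone-marrow-derived macrophages (BMDMs) with and without LPS and the LXR agonist T0901317 (T0). The genes were chosen by name: Clec4a1, Clec4a2, Clec4d, Clec4e, Clec4n, Clec5a, Clec7a and Clec2d of the C-type lectin family, and Pira2 and Cd300a of the immunoglobulin-like receptors. Earlier results of these data were known when the genes were chosen. They are 10 of the 24061 gene symbols in the count table, and the rows of a symbol were summed. BMDMs are primary macrophages grown from mouse marrow for 7 days, here from female C57BL/6J mice aged 8 to 10 weeks, and 3 cultures were sequenced in each of 3 groups. According to the paper, cultures were deprived of serum for a day before treatment. Veh cultures received the DMSO vehicle, and LPS cultures received DMSO and then the bacterial TLR4 ligand for 2 hr at 10 ng/mL. T0+LPS cultures received T0 at 500 nM for 3 hr, and the same LPS stimulus was then added with T0 still in the medium. T0 was compared here only within LPS-stimulated cells. The harvest time of Veh is not given in the sources used here, and LPS and time in culture therefore cannot be told apart in LPS against Veh. The replicates are separately differentiated cultures, so p-values measure the spread between cultures.

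C-type lectin receptors of myeloid cells bind glycans and lipids on microbes and dead cells. The activating ones, such as Mincle (Clec4e), MCL (Clec4d), Dectin-2 (Clec4n) and Dectin-1 (Clec7a), signal through Syk and the Card9, Bcl10 and Malt1 complex, most of them by way of the adaptor FcRγ (Fcer1g), while Dectin-1 carries its own activating motif and MDL-1 (Clec5a) uses DAP12 (Tyrobp). Inhibitory receptors such as DCIR (Clec4a2) and CD300a instead recruit phosphatases, and many of these receptors occur as activating and inhibitory relatives encoded side by side.

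Macrophage markers were abundant in all 9 libraries, which held between 13299044 and 16467983 counted reads. Of the 9 macrophage markers in the table, 8 had reads, with a summed level of 27239 to 29511 CPM (read counts scaled to library size with TMM factors) in Veh, 32388 to 33784 in LPS and 35242 to 36711 in T0+LPS. The ninth, Itgam, had 3 unshared bases and 0 reads. Lymphocyte markers summed to at most 0.277 CPM and fibroblast markers to at most 0.317 CPM in any library, with Cd3e, Klrb1c, Pdgfra, Pdgfrb and Dcn at 0. Klrb1c and Pdgfrb had only 9 and 3 unshared bases, so their 0 reads do not show that they were not expressed. Neutrophil markers summed to between 1.497 and 2.14 CPM in Veh and 3.32 and 4.00 CPM in LPS, and dendritic cell markers to between 0.405 and 0.529 CPM and between 2.54 and 2.98 CPM, with Siglech at 0. In T0+LPS these sums were 2.37 to 3.65 CPM and 2.08 to 3.12 CPM. Both sums were higher in LPS than in Veh, and their part in the receptor values was not tested. Every pair of libraries in a group differed by more than counting noise (chi-square over its degrees of freedom 2.63 to 6.67).

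Only 6 of the 10 genes could be measured. Bases that several transcript rows share carry no reads in this table, so a gene with several overlapping rows is read only on the bases that belong to 1 row. Clec4n, which encodes Dectin-2, had 3 rows with 0 unshared bases of 1245 and 0 reads. Clec4d had 3 unshared bases of 1336 and 16 reads over the 9 libraries, and Clec5a had 75 of 3820 and 14 reads. Clec4a2 had 135 of 2553 and 48 reads. These 4 genes did not pass the filter on low counts, and their few reads do not give the genes' levels of expression. Clec4e, Clec7a, Clec4a1, Clec2d and Cd300a each had 1 row with no shared base, of 2519, 2277, 1558, 1214 and 4642 bases, and between 12038 and 169608 reads. Pira2 lay between these extremes, with 694 unshared bases of 3464 (20.0%) and 1052 reads. The rows of Pira7, Pira1, Pira4 and Pira11 overlap it and had 0 unshared bases and 0 reads of their own. Since the paired immunoglobulin-like receptors are near-identical copies and the handling of reads that align to several places is not given in the sources used here, the value of Pira2 is uncertain.

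**Figure D1:**
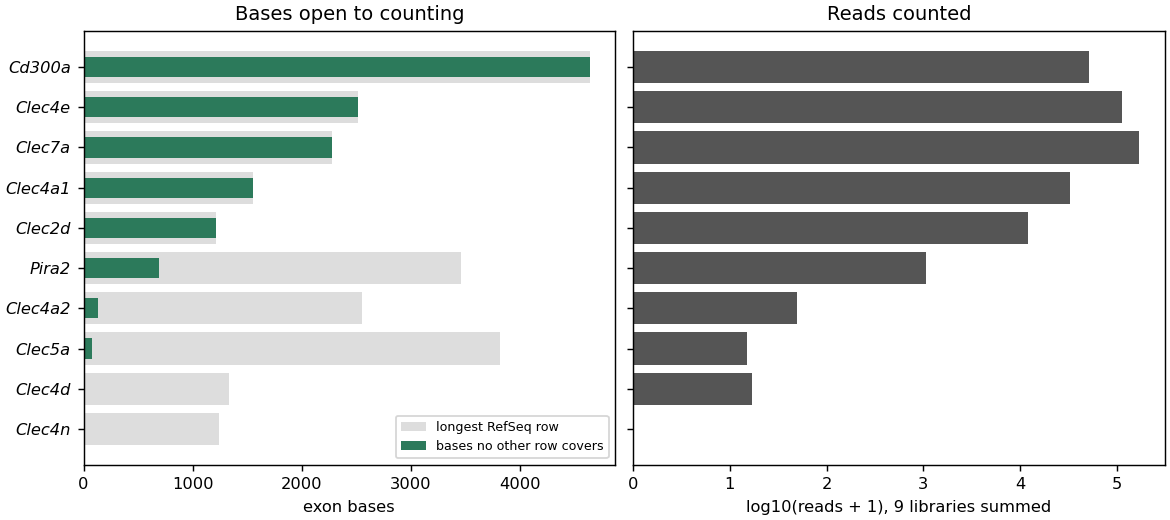
Exon bases of each gene (left, grey bars for its longest row and green bars for the bases no other row covers) and its reads summed over the 9 libraries (right, as log10 of reads + 1). The 4 genes that were not tested lie at 135 unshared bases or fewer and at 48 reads or fewer, while the 6 tested genes lie at 694 bases or more and at 1052 reads or more.

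For the 4 genes that did not pass the filter, the reads are given as counted on their few unshared bases. Clec4d had 2, 1 and 3 reads in Veh, 0, 3 and 1 in LPS and 1, 3 and 2 in T0+LPS. Clec5a had 0, 0 and 3 reads, then 3, 2 and 4, then 0, 0 and 2. The inhibitory receptor gene Clec4a2 had 7, 8 and 7 reads in Veh, 2, 4 and 0 in LPS and 7, 2 and 11 in T0+LPS. Its LPS libraries were all below its Veh libraries, and its T0+LPS libraries overlapped both groups. When every gene with at least 1 count was tested with edgeR, none of the 3 genes with reads was called. In LPS against Veh the log2 fold change was -1.47 for Clec4a2 (SE 0.70, adjusted p = 0.077), 1.80 for Clec5a (SE 1.02, adjusted p = 0.15) and -0.21 for Clec4d (SE 1.08, adjusted p = 0.898). In T0+LPS against LPS it was 1.59 for Clec4a2 (adjusted p = 0.33), -2.06 for Clec5a (adjusted p = 0.51) and 0.46 for Clec4d (adjusted p = 0.92).

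The C-type lectin genes lie on chromosome 6 of mm10, and 5 of them form a cluster of 368 kb from 122921848 to 123289871. In order along the chromosome these are Clec4a1 (122921848 to 122934619, plus strand), Clec4a2 (123122690 to 123143999, plus), Clec4n (123229843 to 123247024, plus), Clec4d (123262107 to 123275268, plus) and Clec4e (123281789 to 123289871, minus). Clec4d and Clec4e point towards each other with 6.52 kb between their ends. Clec2d (129180615 to 129186535, plus) and Clec7a (129461591 to 129472777, minus) lie in a separate group on the same chromosome, and Clec5a (40574898 to 40585805, minus) lies alone. Pira2 is on chromosome 7 (3836810 to 3845051, minus) and Cd300a on chromosome 11 (114890041 to 114904651, plus). Promoter windows of 300 bases, from 250 before to 50 after the RefSeq start site in GRCm38.p6, were found for 9 of the 10 symbols, all but Clec4n. Of the 5 tested genes with no shared base, the 4 whose windows held a match to a motif searched are shown, 5′ to 3′ in the direction of transcription and with capitals for the matches. They are Clec4e (chr6:123289822-123290121, minus), Clec4a1 (chr6:122921598-122921897, plus), Clec7a (chr6:129472730-129473029, minus, of 2 RefSeq windows the one nearest to its row) and Cd300a (chr11:114889791-114890090, plus).
Clec4e: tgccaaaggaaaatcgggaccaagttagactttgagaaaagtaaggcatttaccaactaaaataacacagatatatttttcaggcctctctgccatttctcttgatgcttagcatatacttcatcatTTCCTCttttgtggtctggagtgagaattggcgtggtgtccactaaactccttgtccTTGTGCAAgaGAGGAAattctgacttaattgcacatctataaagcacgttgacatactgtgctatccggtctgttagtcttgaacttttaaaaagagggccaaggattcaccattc
Clec4a1: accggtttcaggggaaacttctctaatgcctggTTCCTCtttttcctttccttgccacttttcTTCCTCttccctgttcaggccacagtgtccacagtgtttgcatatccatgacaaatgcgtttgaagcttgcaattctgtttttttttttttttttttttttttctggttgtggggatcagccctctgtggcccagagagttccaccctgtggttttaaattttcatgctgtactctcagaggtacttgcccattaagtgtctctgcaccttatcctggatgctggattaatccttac
Clec7a: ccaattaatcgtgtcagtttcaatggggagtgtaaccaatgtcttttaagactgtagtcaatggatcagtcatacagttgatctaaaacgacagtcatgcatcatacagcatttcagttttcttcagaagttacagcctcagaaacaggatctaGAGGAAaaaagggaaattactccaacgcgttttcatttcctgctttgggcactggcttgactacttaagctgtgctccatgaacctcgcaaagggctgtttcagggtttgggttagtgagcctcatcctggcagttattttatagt
Cd300a: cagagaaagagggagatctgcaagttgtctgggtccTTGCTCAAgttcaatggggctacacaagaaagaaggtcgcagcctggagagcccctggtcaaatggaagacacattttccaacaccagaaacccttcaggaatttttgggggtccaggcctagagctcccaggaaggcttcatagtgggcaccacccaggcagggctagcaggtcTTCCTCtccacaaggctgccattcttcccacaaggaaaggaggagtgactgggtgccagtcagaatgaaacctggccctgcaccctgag

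The motifs were searched on both strands as GGG and TTTCC with any 2 bases between (NF-kB-type), TGANTCA (AP-1-type), TTGCNNAA (C/EBP-type), GAGGAA (the core of a PU.1-type site) and AGGTCA followed after any 4 bases by AGGTCA or AGTTCA (DR4-type, the spacing that LXR with RXR binds). The GAGGAA core was in 7 of the 9 promoters, in all but Clec4a2 and Clec2d, and in 28.3% of all 32851 promoter windows. In Clec4e it was at -123 and -56 bases from the start site, next to a C/EBP-type match (TTGTGCAA on the printed strand) at -66. In Clec4a1 it was at -217 and -187, in Clec7a at -96 and in Cd300a at -39. The printed strand reads TTCCTC where the core is on the other strand, as in Clec4a1, in Cd300a and at -123 in Clec4e. A C/EBP-type match was in 2 of 9, Clec4e and Cd300a (TTGCTCAA at -214), and in 10.8% of all promoters. The AP-1-type motif was in 1 of 9, Clec4a2, against 7.81% of all promoters. No NF-kB-type or DR4-type match was in any of the 9, where 1.63% and 0.0152% of all promoters had one. No matches overlapped. A match is a run of letters and not a bound site, and its absence says only that these letters are not in this window.

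LPS raised Clec4e 143-fold and moved the other 5 tested receptors by 1.57-fold or less. Of the 6 genes, 4 were called higher in LPS than in Veh (Clec4e, Clec4a1, Clec2d and Pira2) and 2 were called lower (Clec7a and Cd300a). Calls were common in this comparison, with 32.9% of the 9559 genes tested called higher and 31.2% called lower, so a call alone sets no gene apart. In 3 genes all LPS libraries were above all Veh libraries and in 2 they were all below, against 33.7% of all genes tested in each direction. The median log2 fold change of the 6 genes was 0.60, beside -0.0019 over all genes tested. In bulk RNA, fewer cells expressing a gene and less RNA per cell cannot be told apart. Adjusted p-values come from the quasi-likelihood test of edgeR, adjusted by Benjamini and Hochberg's method over all genes tested, and a gene was called at an adjusted p under 0.05.

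Clec4e encodes Mincle, a receptor for mycobacterial and fungal glycolipids and for a nuclear protein released by dying cells. Its level was 9.94, 9.12 and 11.1 CPM in the 3 Veh libraries, 1446, 1440.1 and 1453 CPM in LPS and 1257, 1349 and 1389.8 CPM in T0+LPS. Every LPS-stimulated library was far above every Veh library, and the 3 LPS libraries lay closer together than the 3 T0+LPS libraries. The log2 fold change of LPS against Veh was 7.16 (SE 0.06, adjusted p = 1.8e-20), a 143-fold rise (95% interval 131 to 157). By size of increase Clec4e ranked 42 among the 9559 genes.

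Clec4a1, a close relative of DCIR that carries no inhibitory motif of its own, rose with LPS and again with T0. It had 167, 167 and 167 CPM in Veh, 231, 268 and 281 CPM in LPS and 339, 333 and 303 CPM in T0+LPS. The 3 groups did not overlap and the Veh libraries were nearly equal. The rise with LPS was 1.56-fold (95% interval 1.43 to 1.70, log2 fold change 0.64, SE 0.06, adjusted p = 7.1e-08).

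Clec2d, whose product is a ligand of an inhibitory receptor on natural killer cells, had 67.1, 75.4 and 61.0 CPM in Veh, 101, 103 and 93.8 CPM in LPS and 108, 110.2 and 117 CPM in T0+LPS. All LPS libraries were above all Veh libraries. The rise was 1.47-fold (95% interval 1.33 to 1.62, log2 fold change 0.55, SE 0.07, adjusted p = 2.0e-06). Pira2, an activating receptor of the paired immunoglobulin-like family that binds MHC class I, had 5.02, 9.32 and 7.82 CPM in Veh, 16.6, 6.70 and 11.4 CPM in LPS and 4.95, 5.85 and 5.89 CPM in T0+LPS. Its LPS libraries were the most scattered of the 6 tested genes relative to their mean, and LPS replicate 2 lay inside the Veh range. The log2 fold change of 0.65 (SE 0.25, adjusted p = 0.032) was called, but the exact permutation test of 3 against 3 gave p = 0.3 (2-sided). The call was lost without LPS replicate 1 (0.30, adjusted p = 0.31), without LPS replicate 3 (adjusted p = 0.056), without Veh replicate 1 (adjusted p = 0.13) and without Veh replicate 3 (adjusted p = 0.054). It was also lost with library totals as the only scaling (adjusted p = 0.20), with DESeq2 (adjusted p = 0.21) and with limma-voom (adjusted p = 0.055).

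Clec7a and Cd300a were already abundant in Veh and were lower in LPS. Clec7a encodes Dectin-1, the receptor for fungal β-glucan, and had 1371.5, 1446.5 and 1399.9 CPM in Veh, 1352.1, 1262.9 and 1129.6 CPM in LPS and 1262.3, 1009.9 and 1232.6 CPM in T0+LPS. The highest LPS library was just below the lowest Veh library. The level in LPS was 0.889 of that in Veh (95% interval 0.821 to 0.963, log2 fold change -0.17, SE 0.05, adjusted p = 0.012), and the call was lost without Veh replicate 2 (-0.15, adjusted p = 0.055). Cd300a encodes an inhibitory receptor for phosphatidylserine and phosphatidylethanolamine, and had 463, 432 and 448 CPM in Veh, 338, 356 and 344 CPM in LPS and 368, 325 and 339 CPM in T0+LPS. The LPS libraries were all below the Veh libraries and the T0+LPS libraries lay on both sides of them. The level in LPS was 0.775 of that in Veh (95% interval 0.728 to 0.825, log2 fold change -0.37, SE 0.04, adjusted p = 1.2e-06). With exact permutation tests of 1 gene at a time, each of the 5 genes whose groups did not overlap gave p = 0.1, the smallest 2-sided p that 3 against 3 allows. Scaling by library totals alone shifted the median log2 fold change of all genes to -0.28, and on that scale the values were 6.88 for Clec4e, 0.36 for Clec4a1, 0.27 for Clec2d, -0.45 for Clec7a and -0.65 for Cd300a, with all 5 calls kept.

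**Figure D2:**
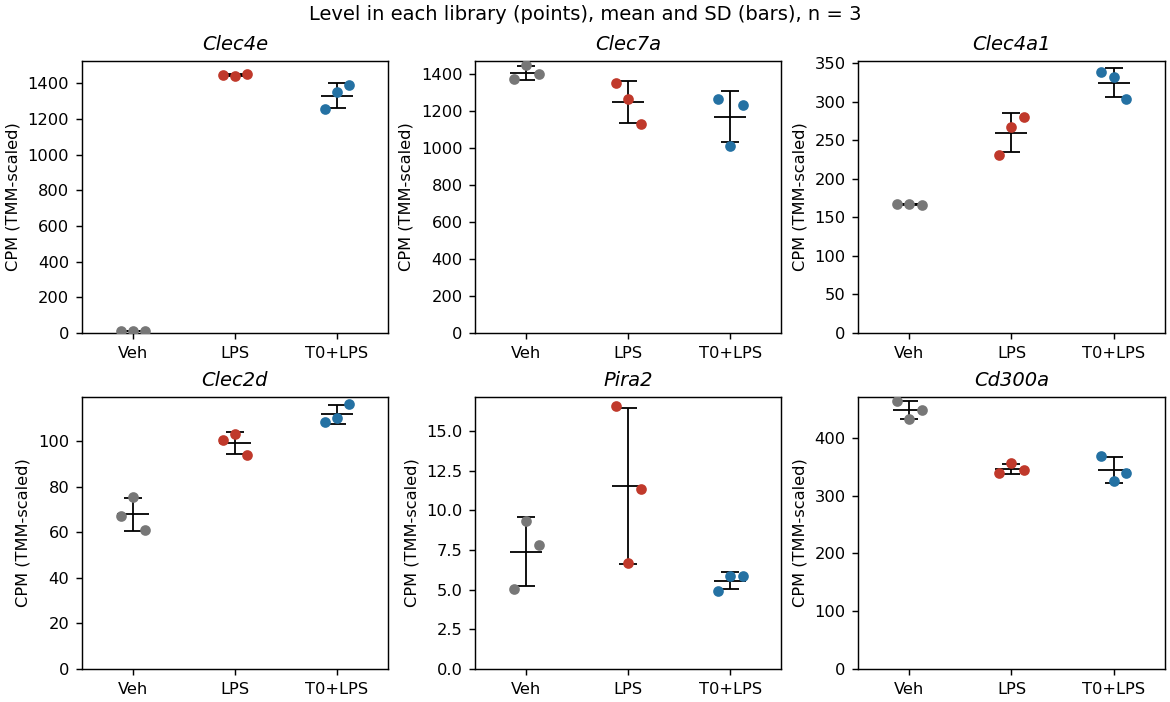
Level of each of the 6 tested genes in CPM (y axis, linear, from 0, a separate scale for each gene) in the 3 libraries of Veh, LPS and T0+LPS, with points for libraries and bars for the mean and SD. Clec4e is near 10.1 CPM in Veh and between 1257 and 1453 CPM in the stimulated groups, Clec4a1 climbs in both steps, and the LPS libraries of Pira2 spread from 6.70 to 16.6 CPM.

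With T0 given before and during LPS, Clec4a1 was 1.25-fold higher, Pira2 was at 0.487 of its LPS level, and the other 4 were not called. Of the 6 genes, 1 was called higher with T0 (Clec4a1) and 1 was called lower (Pira2), where 1.35% of the 9348 genes tested were called higher and 1.83% lower. In 2 genes, Clec4a1 and Clec2d, all T0+LPS libraries were above all LPS libraries, against 9.51% of all genes tested, and in 2, Clec4e and Pira2, they were all below, against 9.62%. The median log2 fold change of the 6 genes was -0.05, beside 0.0028 over all genes tested. This comparison shares its LPS libraries with LPS against Veh, so the values of each gene in both are given side by side and were not correlated.

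Clec4a1 was 1.25-fold higher in T0+LPS than in LPS (95% interval 1.13 to 1.38, log2 fold change 0.32, SE 0.07, adjusted p = 0.012), after the 0.64 by which it rose with LPS. The call was lost without LPS replicate 1, the lowest LPS library (0.25, adjusted p = 0.076), and without T0+LPS replicate 2 (0.31, adjusted p = 0.062). Clec4a1 ranked 429 of 9348 genes by increase, so many genes, called or not, had a larger fold change. The summed level of the macrophage markers moved with it, and among them Mertk, a receptor for dying cells, was called higher with T0 (log2 fold change 1.06) after being lower in LPS than in Veh (-0.81). Their part in the change of Clec4a1 was not tested.

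Pira2 fell in T0+LPS to 0.487 of its LPS level (95% interval 0.341 to 0.696, log2 fold change -1.04, SE 0.24, adjusted p = 0.027), and the T0+LPS libraries lay within or just below the Veh range. Among 9348 genes it ranked 20 from the largest decrease. The call rests on 65 to 209 reads per library and held without only 2 of the 6 libraries in turn. It was lost without LPS replicate 1, the highest library (-0.69, adjusted p = 0.15), without T0+LPS replicates 1, 2 or 3 in turn (adjusted p = 0.071, 0.085 and 0.070), with DESeq2 (adjusted p = 0.12) and with limma-voom (adjusted p = 0.073). No estimate for the other activating Pira genes is given, because their rows held no reads.

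The other 4 genes were not called. Clec2d was 1.13-fold higher with T0 (95% interval 1.04 to 1.22, adjusted p = 0.11), with no overlap between the groups. Clec4e was at 0.921 of its LPS level (95% interval 0.862 to 0.984, log2 fold change -0.12, adjusted p = 0.22), also with no overlap, and in T0+LPS it stayed far above Veh. Clec7a was at 0.936 (95% interval 0.837 to 1.05, adjusted p = 0.66) and Cd300a at 0.994 (95% interval 0.921 to 1.07, adjusted p = 0.97), and their groups overlapped. These intervals belong to single genes and are not adjusted for the number of genes. The exact permutation test of 3 against 3 gave p = 0.1 for the 4 genes without overlap, p = 0.5 for Clec7a and p = 0.9 for Cd300a (2-sided).

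**Figure D3:**
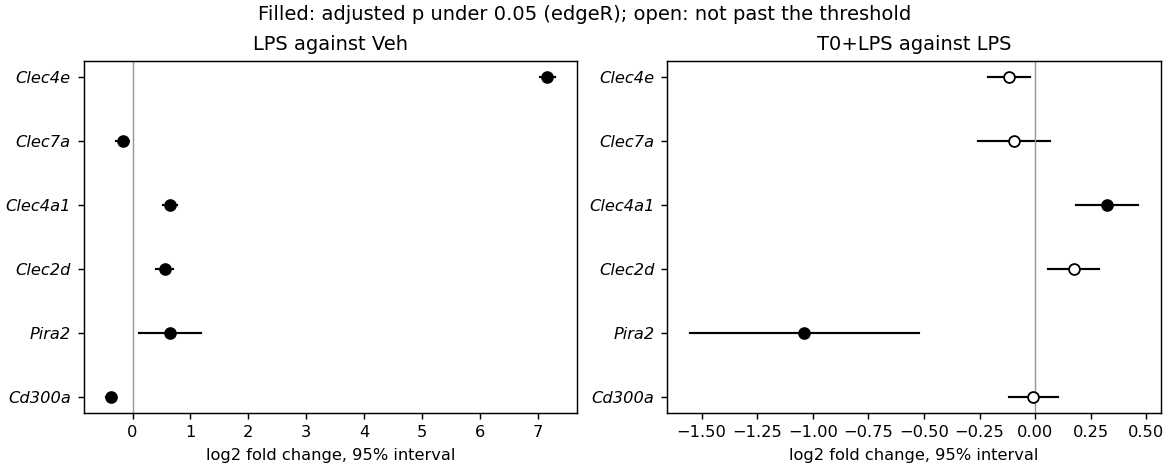
Log2 fold change (x axis, a separate scale in each panel) of each tested gene with its 95% interval (bar), in LPS against Veh and in T0+LPS against LPS, with filled points for genes called at an adjusted p under 0.05 in edgeR. Clec4e at 7.16 stands apart in the first comparison, and in the second only Clec4a1 at 0.32 and Pira2 at -1.04 are called.

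Levels of different genes were compared as RPKM, reads scaled to the unshared bases and to library size. In Veh the order was Clec7a (617 ± 16.6 RPKM, SD, n = 3), Clec4a1 (107 ± 0.191), Cd300a (96.4 ± 3.35), Clec2d (55.9 ± 5.97), Pira2 (10.6 ± 3.14) and Clec4e (3.99 ± 0.398), and no neighbours in that order overlapped. Dectin-1 was thus the most abundant of the 6 transcripts and Mincle the least. In LPS, Clec4e (574 ± 2.56 RPKM) and Clec7a (548 ± 49.2) led, with overlapping libraries, followed by Clec4a1 (167 ± 16.4), Clec2d (81.7 ± 3.97), Cd300a (74.6 ± 1.97) and Pira2 (16.6 ± 7.11). Mincle therefore moved from last to the level of Dectin-1, and Cd300a and Clec2d changed places. In T0+LPS the order was the same as in LPS, with Clec4e (528.8 ± 27.0 RPKM) and Clec7a (513 ± 60.6) overlapping, then Clec4a1 (209 ± 12.2), Clec2d (92.0 ± 3.52), Cd300a (74.1 ± 4.78) and Pira2 (8.02 ± 0.768).

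**Figure D4:**
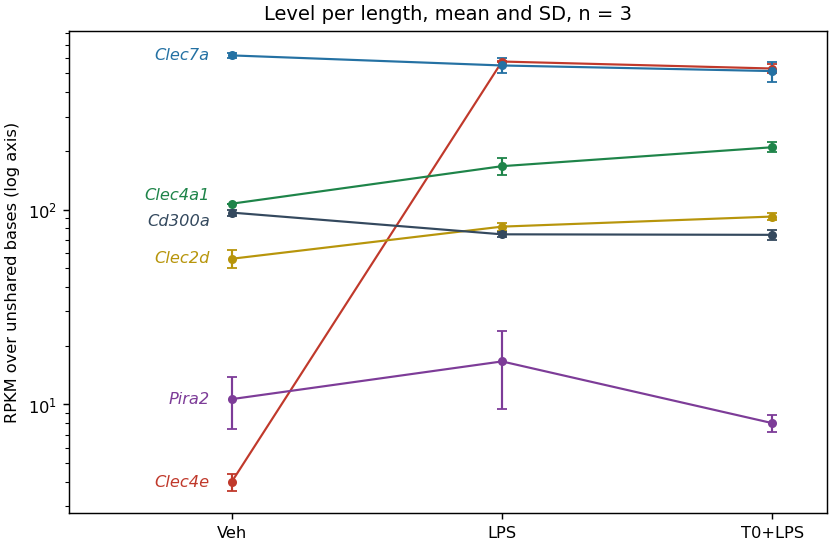
Level per length in RPKM (y axis, log scale) of the 6 tested genes in Veh, LPS and T0+LPS (x axis), with lines joining group means and bars for the SD of 3 libraries. Clec4e crosses the other lines from 3.99 RPKM in Veh to 574 RPKM in LPS and meets Clec7a, while the order in T0+LPS is that of LPS.

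The genes nearest to each receptor in pattern were found by the root-mean-square difference of centred log2(CPM + 1) over the 9 libraries, among 7298 genes with a mean of at least 5 CPM. For Clec4e they were Icam1 (0.256), Cxcl3 (0.282) and Gpr84 (0.401), where the median over all genes was 3.27. Cxcl3 and Gpr84 were at 0.146 and 0.479 CPM in Veh and at 220 and 110.5 CPM in LPS. Their Veh levels lie below the 1 CPM added before the log, which compresses their rise. They are near Clec4e on this scale and not in fold change. For Clec4a1 the nearest genes were Ctsc (0.0789), Ninj1 (0.0829) and Sema4b (0.0938), against a median of 0.418. Ctsc encodes the protease cathepsin C and Icam1 an adhesion molecule. Clec2d was nearest to Ube2n (0.0697), Lpcat1 (0.0834) and Akirin1 (0.0842), and Cd300a to Arhgap18 (0.0361), Dnajc16 (0.0394) and Tecpr1 (0.0395). Clec7a was nearest to Haus1 (0.0570), Isoc2b (0.0575) and Hacl1 (0.0579). The medians over all genes were 0.337, 0.243 and 0.225 for these 3 receptors. Pira2 was nearest to Maml3 (0.339), Lrrk2 (0.355) and Chst11 (0.359) against a median of 0.528. Among the receptors themselves, Clec7a and Cd300a differed by 0.124 and Clec4a1 and Clec2d by 0.165.

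Of 21 other C-type lectin receptor genes in the table, 6 were tested, and 7 of the 15 not tested had fewer than 100 unshared bases. In LPS against Veh, 2 were called higher and 1 lower, where 32.9% of all genes tested were called higher and 31.2% lower. The median log2 fold change was 0.09 beside -0.0019 over all genes. Clec12a, an inhibitory receptor for uric acid crystals, rose from 665 ± 16.2 to 844 ± 31.2 CPM (SD, n = 3) with a log2 fold change of 0.35 (SE 0.04, adjusted p = 1.8e-06), which was not called when libraries were scaled by totals alone (0.06, adjusted p = 0.15). In T0+LPS against LPS none of the 6 was called with edgeR, DESeq2 or limma-voom, 0 had an unadjusted p under 0.05 in edgeR, and the median was -0.06. Of all genes tested in edgeR, 1.35% were called higher and 1.83% lower.

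Of 30 other paired and immunoglobulin-like receptor genes in the table, 14 were tested. With LPS 5 were called higher and 4 lower, with a median of -0.0042. Of all genes tested 32.9% were called higher and 31.2% lower, so these counts do not set the list apart. The inhibitory receptor gene Pirb, the partner of the Pira genes, rose from 473 ± 18.3 to 736 ± 18.4 CPM (log2 fold change 0.64, SE 0.04, adjusted p = 1.2e-09), beside 0.65 for Pira2. In T0+LPS against LPS Pirb was not called (-0.08, adjusted p = 0.43 in edgeR), where Pira2 had -1.04. Pilra, also inhibitory, rose by 1.44 on the log2 scale, and its activating relatives Pilrb1 and Pilrb2 rose by 0.88 and 0.70. Cd300lb, an activating relative of Cd300a, fell from 802 ± 30.0 to 211 ± 10.2 CPM (-1.92, SE 0.05, adjusted p = 2.3e-15), beside -0.37 for Cd300a. Cd200r1, the inhibitory receptor for CD200, had a log2 fold change of -1.02. With T0 edgeR called 1.35% of all genes tested higher and 1.83% lower. Of the 14, 1 was called higher and 0 lower in edgeR, DESeq2 and limma-voom. In edgeR 3 were higher and 2 were lower at an unadjusted p under 0.05, and the share of all genes at that threshold was not counted. The called gene was Cd300lb, which rose to 283 ± 32.1 CPM (0.42, SE 0.07, adjusted p = 0.0025), where Cd300a had -0.01.

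Of 23 signalling genes downstream of these receptors, 15 were tested, and with LPS 9 were called higher and 2 lower, with a median of 0.44. Of all genes tested 32.9% were called higher and 31.2% lower. All 3 parts of the Card9, Bcl10 and Malt1 complex were measured. Malt1, its protease, rose from 188 ± 4.01 to 1458 ± 76.9 CPM (log2 fold change 2.95, SE 0.05, adjusted p = 1.5e-17), Bcl10 rose from 121 ± 3.43 to 308 ± 6.21 CPM (1.35), and Card9 had a log2 fold change of -0.38 and was called lower. The kinase genes Syk and Fgr rose by 1.87 and 2.39, Prkcd by 0.67 and the PI3-kinase adaptor Pik3ap1 by 0.61. Syk was read on only 342 unshared bases, against 3342 for Fgr and 2775 for Prkcd. With each RefSeq row fitted on its own, the Syk row with the most reads rose by 1.61. Of the adaptors, Fcer1g was called higher with 0.24 and Tyrobp was not called with -0.02. Card9, Fcer1g and Tyrobp were named after their values were seen. With T0, Malt1 was called lower, with 1164 ± 99.2 CPM in T0+LPS (-0.33, SE 0.06, adjusted p = 0.0042). Among the 15, 1 was called lower and 0 higher in edgeR, DESeq2 and limma-voom. Of all genes tested in edgeR, 1.83% were called lower and 1.35% higher. In edgeR 1 of the 15 was higher and 2 were lower at an unadjusted p under 0.05, and the share of all genes at that threshold was not counted.

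**Figure D5:**
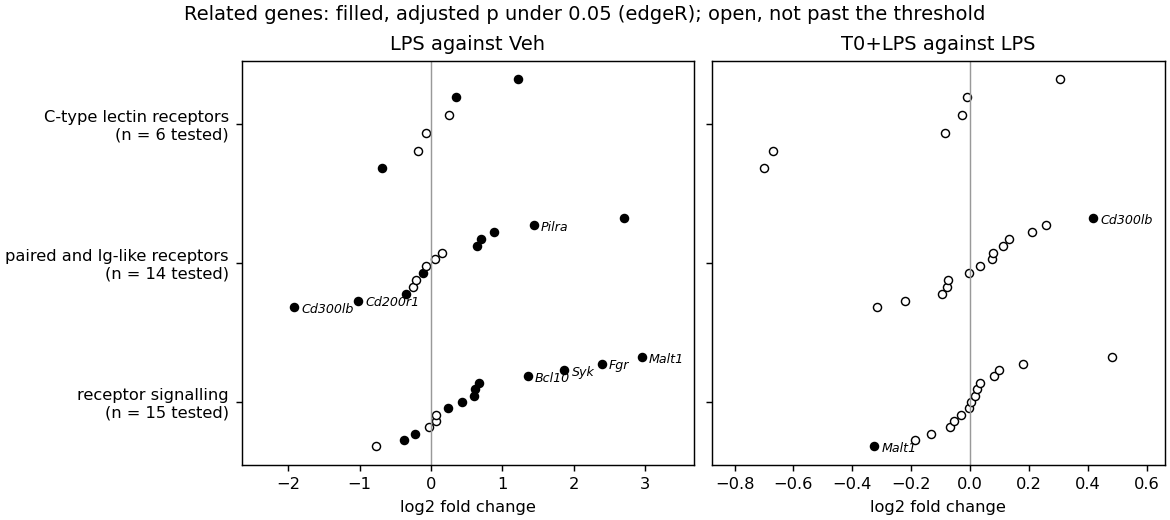
Log2 fold change (x axis, a separate scale in each panel) of each tested gene of the 3 related lists (groups of points, in order of the value) in LPS against Veh and in T0+LPS against LPS, with filled points for called genes. Malt1 and Cd300lb are called in both comparisons and with opposite signs in each, from 2.95 to -0.33 and from -1.92 to 0.42. Both comparisons use the same LPS libraries, so the values of a gene in them are not independent.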

How the data were processed

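Polyadenylated RNA of 9 BMDM cultures was sequenced. The authors trimmed reads with cutadapt, aligned them to mm10 with HISAT2 and counted them on RefSeq transcripts with featureCounts of Subread, and deposited raw read counts without normalization. The strand setting is not given in the sources used here. From the exon positions in the deposited table, reads on bases shared by several rows were not counted, and 6696 of 32850 rows had no unshared base. Further deposited tables hold the authors' own DESeq2 comparison, RPKM ratios and gene names, and were not used.

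Counts were summed by symbol. Each comparison was fitted to its 6 libraries with edgeR 4.0.16 in R 4.3.3 (filterByExpr with a minimum count of 10, TMM factors, quasi-likelihood test, Benjamini-Hochberg adjustment over all genes, called at an adjusted p under 0.05). The test was run on simulated data as a check of the code. CPM used TMM factors over all 9 libraries, and RPKM the unshared bases. Single genes were tested by exact permutation with scipy 1.17.1. Median depths were 15086484 counts in Veh, 13661218 in LPS and 15320506 in T0+LPS, which sets the precision for genes with few reads. Alternatives were other scalings and filters, DESeq2 1.42.0, limma-voom 3.58.1, single rows, all 9 libraries in 1 fit, a replicate block and leaving out each library in turn. Of related lists, at most the 6 called genes with the largest change and a mean of at least 5 CPM were named, and of each receptor the 3 nearest genes in pattern. Members and lists were chosen with earlier results of these data known. Promoter windows are from RefSeq tables. A marker gene of the lists is not reported here.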

Additional observations from a re-analysis of the deposited data

How the results depend on the processing

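The 12 fold changes of the 6 tested receptors had 192 alternative values, of which 171 kept direction and call, 17 kept the direction and lost the call and 4 changed sign. The sign changed for values near 0 in T0+LPS against LPS: with 1 library left out, Clec7a ranged from -0.16 to 0.0015 (positive only without T0+LPS replicate 2) and Cd300a from -0.059 to 0.034 (positive at 0.01 without LPS replicate 2, 0.034 without T0+LPS replicate 2 and 0.0031 without T0+LPS replicate 3). In LPS against Veh, scaling by library totals alone gave 1694 genes higher and 5411 lower in place of 3148 and 2981, 1 C-type lectin list gene higher and 2 lower, 8 paired and Ig-like receptors lower and 6 signalling genes lower. DESeq2 called 0 C-type lectin list genes lower, with and without the replicate block. Leaving out 1 library gave 3 to 4 receptors higher and 1 to 2 lower, and 0 to 2 C-type lectin list genes lower. In T0+LPS against LPS, testing every gene with a count gave 225 higher and 285 lower in place of 126 and 171, and 1 paired receptor lower. DESeq2 without the replicate block and limma-voom each called 0 receptors lower. Leaving out 1 library gave 59 to 167 genes higher and 82 to 191 lower, 0 to 1 receptors in each direction and 0 to 1 paired receptors lower. The cause of these differences was not tested.

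Libraries with the same replicate number did not deviate together (correlations of -0.05 to 0.05, and 2 of 6 and 1 of 6 libraries closest to their own number), so the numbers were not taken to pair the cultures. With the replicate block edgeR called 4 receptors higher and 2 lower with LPS and 1 and 1 with T0, as without it. With the replicate block DESeq2 called 72 genes higher and 83 lower with T0, and Pira2 was not called with LPS (adjusted p = 0.43). In that setting Pira2 was called lower with T0 (log2 fold change -0.97, adjusted p = 0.030), a call that DESeq2 without the block did not make. Pira2 had 65 to 209 reads per library, and Clec4d, Clec4n, Clec5a and Clec4a2 could not be measured at this depth on their unshared bases.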

Other observations

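Among the related receptors, 3 called with LPS had a mean under 5 CPM and were chosen after their values were seen. Fcgr2b, the inhibitory receptor for immunoglobulin G, had a log2 fold change of 2.70 in LPS against Veh, and Ly75, the endocytic lectin DEC-205, had 1.22. Fcgr2b was read on only 141 unshared bases, with 578 reads over the 9 libraries, so its low CPM does not give its level of expression. Clec1a, a lectin receptor that binds fungal melanin, was called lower (-0.69, SE 0.27, adjusted p = 0.032 from edgeR). Ly75 was at 1.84 ± 0.444 CPM (SD, n = 3) in Veh, 4.30 ± 0.831 CPM in LPS and 4.04 ± 0.131 CPM in T0+LPS.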
